A study of Mus musculus with 36 samples.

Results

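Mouse bone marrow-derived macrophages labelled WT were compared after 8 h of lipopolysaccharide (LPS) and without LPS, across all measured genes. The LPS 8 h group holds 6 libraries from cells given 100 ng/mL LPS for 8 h, and the control group holds 6 libraries from cells whose treatment label is control. Both groups were chosen by genotype label (WT, or BMDM WT in 1 library of each group) and treatment label, which gave 12 of the 36 libraries of the series. The other 24 libraries are a WT-labelled group with LPS for 2 h, used below as a time point between both groups, and 3 groups labelled NOS1 KO. All groups share the same culture: bone marrow cells were kept for 5 days in macrophage colony-stimulating factor (M-CSF) at 20 ng/mL, which gives a primary culture and not a cell line. The labels give no strain, sex, age, animal or batch, and no time for the controls. Whether the controls were harvested alongside the 8 h cells is therefore not known. They do not say whether each library of a group is its own culture, so the p-values rest on a spread between libraries that may be only technical.

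LPS is a component of the outer membrane of Gram-negative bacteria. Macrophages bind it through CD14 and the Toll-like receptor TLR4 with its partner MD-2, and the receptor signals through the adaptors MyD88 and TRIF to the transcription factors NF-kB, AP-1 and IRF3. IRF3 and NF-kB switch on interferon beta, which acts back on the macrophage through its own receptor and STAT factors, so that a wave of interferon-stimulated genes is known to follow the first wave of cytokines.

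The 12 libraries held 8953489 to 15112452 counts each, and 12957 genes were tested. Nos1, the neuronal nitric oxide synthase gene named in the KO label, had 0 to 8 counts in a WT LPS 8 h library and 0 to 3 in a WT control. In KO-labelled libraries it had 10 to 22 counts at 8 h and 30 to 83 in controls, which goes against that label. The labels do not say which part of the gene was deleted, and a count over a whole gene does not show where its reads lie. No direction given here rests on the genotype label, and WT stands for the libraries labelled WT. Macrophage identity held in both groups: the summed level of 12 macrophage markers was 22182 to 27464 CPM (counts scaled to a common library size) in LPS 8 h libraries and 15129 to 19591 CPM in controls. Within every group, replicates 1, 2 and 6 (set A) stood apart from replicates 3, 4 and 5 (set B) in an unlabelled way, so values within each set are given for lists, and for each gene whose log2 fold changes in the sets lay more than 1 apart. LPS replicate 5 also carried skeletal muscle transcripts, with a summed marker level of 4956 CPM, against 9.98 to 142 CPM in the other 5 LPS 8 h libraries and 17.4 to 73.6 CPM in controls.

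After 8 h of LPS most of the measured transcriptome differed from control. Most inflammatory, interferon-stimulated and antigen presentation genes were higher, and most genes of DNA replication, mitosis, DNA repair and ribosome assembly were lower. By edgeR's quasi-likelihood test with Benjamini-Hochberg adjustment, 9227 of 12957 genes were called at an adjusted p below 0.05, which is 71.2% of the genes tested. Of these, 4432 were higher (34.2% of all tested) and 4795 were lower (37.0%). Each count of list members below has to be read against these shares. Among the called genes 2409 were at least 2-fold higher and 2603 at least 2-fold lower, and at 16-fold or more 503 were higher and 167 were lower. In 3409 of the genes called higher (26.3% of all tested) every LPS 8 h library lay above every control, and in 3352 of the genes called lower (25.9%) every one lay below. Genes 16-fold or more higher took 17.0% to 18.9% of all counts in LPS 8 h libraries and 0.464% to 0.685% in controls. Genes called lower took 8.46% to 9.24% of the counts in LPS 8 h libraries and 27.1% to 28.3% in controls.

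The directions depend on the scale. Library sizes were set by edgeR's TMM method (a trimmed mean of M-values), and all CPM values given here are on that scale, where the median log2 fold change of all tested genes was -0.06. On library totals alone the median was -0.83, with 2193 genes called higher and 8841 lower, so that 19.9% of the called genes were higher in place of 48.0%. Changes smaller than that shift are therefore relative to the TMM scale. The counts on library totals are given too where the scale turns round or evens out which direction has more calls in a counted list.

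**Figure D1:**
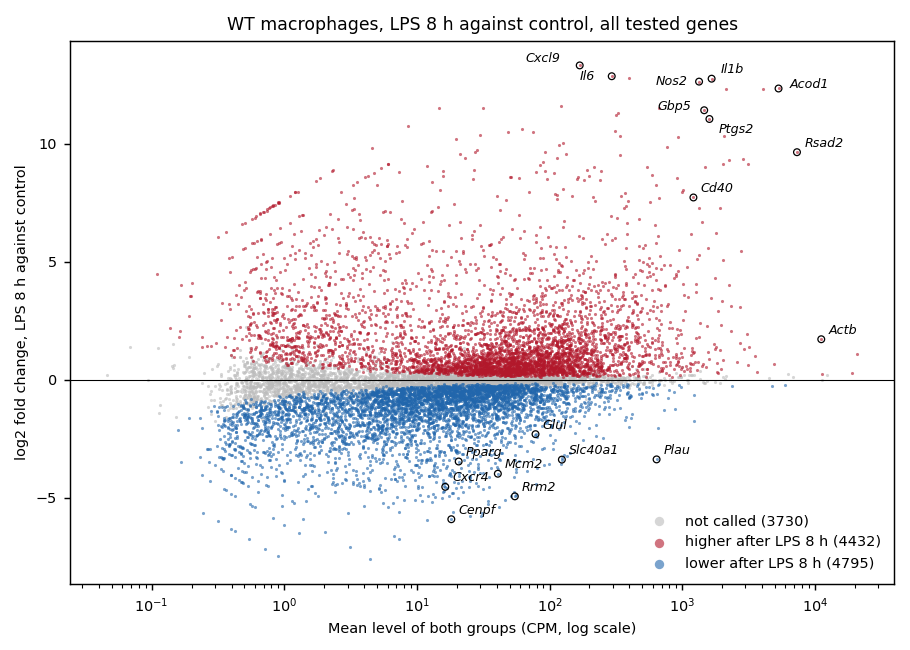
Change of each of the 12957 tested genes in WT macrophages after 8 h of LPS against control. The horizontal axis is the mean of both groups' mean level (CPM, log scale) and the vertical axis is the log2 fold change. Red points are the 4432 genes called higher, blue points the 4795 called lower and grey points the 3730 not called. Named points above 0 reach from Actb (1.72) to Cxcl9 (13.33), and those below 0 from Glul (-2.31) to Cenpf (-5.91).

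The largest increases were those of secreted mediators and of enzymes of the classically activated macrophage, which were near 0 in controls. Cxcl9, a chemokine that draws T cells through CXCR3 (ENSMUSG00000029417, mm10 chromosome 5, 92321347 to 92328079), stood between 129 and 558 CPM (median 325) in LPS 8 h libraries, and the 6 control libraries held 2 counts in all. The ratio of both groups was 14160.4 (95% counting interval 3919 to 116936), and the fitted log2 fold change was 13.33 ± 0.72 (SE, edgeR adjusted p = 9.50e-18). Il6, an inflammatory cytokine and inducer of the acute phase response, was between 477 and 677 CPM (median 612) after LPS and had 6 counts over the controls, a ratio of 8750.3 (95% counting interval 4019.8 to 23846). Il12b, the subunit shared by interleukins 12 and 23, was between 301 and 1219 CPM (median 828) after LPS with 9 counts over the controls, a ratio of 8170.5 (95% counting interval 4304 to 17869). Below, an amount by which a gene rose or fell, or a value marked log2, is a log2 fold change of LPS 8 h against control with its SE. In none of the 83 genes given here with values per library did LPS 8 h and control libraries overlap, which held for 26.3% of all tested genes on the higher side and 25.9% on the lower side, and part of the rule that chose these genes required it. Within the sets, log2 fold changes were 13.97 within set A and 12.11 within set B for Cxcl9, 13.17 within set A and 12.69 within set B for Il6 and 12.36 within set A and 12.99 within set B for Il12b.

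Il1b, whose product is released after cleavage by caspase-1 (ENSMUSG00000027398, mm10 chromosome 2, 129364570 to 129371139), was between 1381 and 5042 CPM (median 3434) in LPS 8 h libraries and between 0.0694 and 1.87 CPM (median 0.225) in control libraries. Its log2 fold change was 12.77 ± 0.53 (SE, edgeR adjusted p = 7.20e-21), with 12.72 within set A and 12.84 within set B, and no library of one group reached the other. Without control replicate 3, the highest control, it was 13.71. Csf3, which encodes granulocyte colony-stimulating factor, had 3786 counts over the LPS 8 h libraries and 1 over the controls, a ratio of 5948 (95% counting interval 1067 to 235004). Its level was 4.88 to 8.94 CPM in the LPS 8 h libraries of set A and 115 to 124 CPM in those of set B, with log2 fold changes of 7.80 within set A and 13.64 within set B. Ccl5, a chemokine for T cells and monocytes, was between 7184 and 8958 CPM (median 8294) in LPS 8 h libraries and between 0.694 and 4.16 CPM (median 0.888) in control libraries, and after LPS it was among the most abundant transcripts per length, at 8431 CPM per kb of exon against 1.69 CPM per kb in controls. Of the chemokines, 18 of 19 tested members rose and 0 fell, with a median log2 fold change of 6.18, with 6.39 within set A and 5.93 within set B. The one tested chemokine that was not called, Ccl6, differed by 0.08 on the log2 scale. Among cytokines 23 of 24 tested members rose and 0 fell, with a median of 6.43, with 5.01 within set A and 6.74 within set B, or 6.15 with Il12a and Il19, which had no control count, set to their bound against a floor of 3 counts over the group. Il12a, the partner of Il12b in interleukin 12, was at least 528-fold higher by that floor.

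Set against 2 h of LPS, mediators at 8 h were higher in some cases and lower in others. By edgeR, 8133 genes (62.8% of those tested) were called between 8 h and 2 h of LPS. Cxcl9 was between 1.52 and 7.41 CPM (median 2.08) at 2 h and Il6 was between 13.2 and 42.3 CPM (median 35.2), and both were higher at 8 h, with log2 differences of 6.57 ± 0.45 and 4.23 ± 0.29 (SE, edgeR adjusted p = 1.06e-14 and 1.84e-14). Ifnb1, the interferon beta gene, went the other way: it was between 1.23 and 7.70 CPM (median 3.51) at 8 h and between 26.7 and 75.6 CPM (median 42.2) at 2 h, a log2 difference of -3.54 ± 0.34 (SE, edgeR adjusted p = 7.37e-11), while the 6 controls held 3 counts in all. Nfkbia, the inhibitor of NF-kB that is itself an NF-kB target, stood between 1183 and 1449 CPM (median 1319) at 8 h and between 1169 and 1604 CPM (median 1321) at 2 h, and that difference was not called (log2 -0.01 ± 0.10, edgeR adjusted p = 0.93). Tnip3, which binds the ubiquitin-editing enzyme A20, had a log2 fold change of 4.92 ± 0.31 at 8 h and 3.68 at 2 h, both against the same controls. Tnip3 had log2 fold changes of 4.35 within set A and 5.66 within set B.

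**Figure D2:**
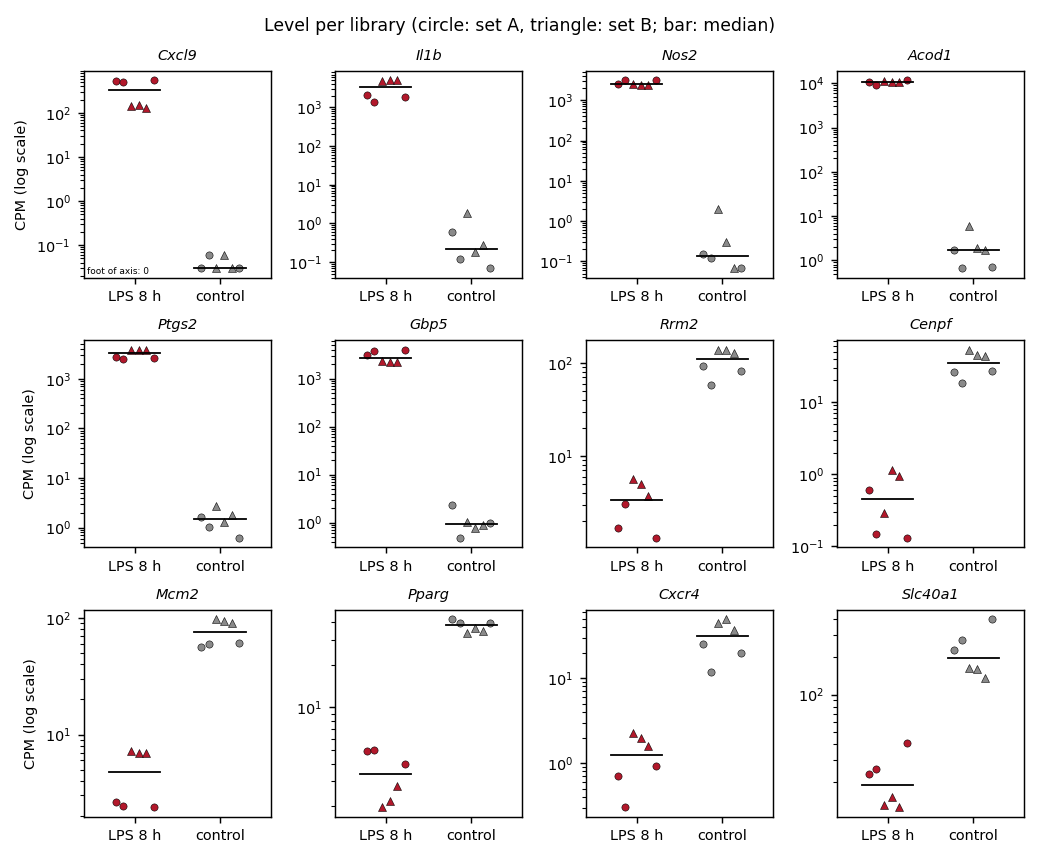
Level of 12 genes in each library of WT macrophages, LPS 8 h (red, left) beside control (grey, right), in CPM on a log axis with 0 drawn at the foot. Circles are libraries of set A and triangles those of set B, and the bar is the group median. In each panel the groups do not overlap: Cxcl9, Il1b, Nos2, Acod1, Ptgs2 and Gbp5 are higher after LPS, and Rrm2, Cenpf, Mcm2, Pparg, Cxcr4 and Slc40a1 are lower.

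Every tested member of both lists of interferon-stimulated genes rose. Of the antiviral genes, 39 of 39 tested members rose and 0 fell, with a median log2 fold change of 4.88, with 4.79 within set A and 5.47 within set B. Among the guanylate-binding proteins and immunity-related GTPases, which attack the vacuoles of intracellular microbes, 19 of 19 tested members rose and 0 fell, with a median of 7.94, with 8.54 within set A and 7.26 within set B. Gbp5 (ENSMUSG00000105504, mm10 chromosome 3, 142493978 to 142522344) was between 2177 and 4005 CPM (median 2690.0) in LPS 8 h libraries and between 0.482 and 2.33 CPM (median 0.924) in control libraries, a log2 change of 11.43 ± 0.40 (SE, edgeR adjusted p = 8.39e-23). Iigp1, an immunity-related GTPase, was between 334 and 1074 CPM (median 588) in LPS 8 h libraries and between 0.0674 and 0.556 CPM (median 0.230) in control libraries, with 11.45 within set A and 10.97 within set B. Both groups were apart in both genes. Gbp9, chosen after its values were seen, stood at a log2 fold change of 0.30 at 2 h and 5.94 ± 0.37 at 8 h against the same controls, and Gbp10, with no count in the controls, was at least 48.2-fold higher at 8 h by a floor of 3 counts over the group.

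Most cytosolic sensors of nucleic acids rose, with 13 of 19 called higher and 4 lower (median 2.28, with 2.73 within set A and 2.05 within set B). The increases were led by the AIM2-like genes of chromosome 1, a family of DNA-binding proteins whose reads can be split between near-identical copies. Ifi205 (ENSMUSG00000054203, mm10 chromosome 1, 174011998 to 174031810) was between 1137 and 1599.5 CPM (median 1321) in LPS 8 h libraries and between 0.241 and 0.978 CPM (median 0.323) in control libraries, a log2 change of 11.54 ± 0.57 (SE, edgeR adjusted p = 9.54e-19). Ifi208 and Ifi209 had log2 fold changes of 9.56 ± 0.73 and 6.55 ± 0.56, with 10.72 for Ifi208 without control replicate 1. Oas2 and Oas3, enzymes that sense double-stranded RNA, had log2 fold changes of 3.97 ± 0.44 and 4.47 ± 0.53. Zcchc3, a cofactor of cGAS and of RIG-I-like receptors, fell by 1.204 ± 0.37. Ifi208 had log2 fold changes of 9.10 within set A and 10.99 within set B and Oas2 of 3.60 and 4.92.

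The windows around the start sites of some of the genes that changed most hold letters of known response elements, and a few are shown so that the match can be seen. RefSeq windows (GRCm38.p6, 250 bases before to 50 after the start) were searched on both strands for GAAANNGAA (the core of the interferon-stimulated response element), GGNNTTTCC (an NF-kB core) and TTTNNCGC (an E2F site), and capitals mark each match in the 4 windows below, which are those of Cxcl9 (chr5:92328030-92328329, minus strand), Gbp5 (chr3:142496684-142496983, plus strand), Rsad2 (chr12:26456403-26456702, minus strand) and Acod1 (chr14:103046762-103047061, plus strand).
Cxcl9: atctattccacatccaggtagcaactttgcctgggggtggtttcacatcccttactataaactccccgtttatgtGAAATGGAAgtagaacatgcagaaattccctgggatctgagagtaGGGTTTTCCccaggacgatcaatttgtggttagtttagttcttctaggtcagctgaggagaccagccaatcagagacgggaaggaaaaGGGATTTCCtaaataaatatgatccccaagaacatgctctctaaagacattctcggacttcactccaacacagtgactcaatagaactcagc
Gbp5: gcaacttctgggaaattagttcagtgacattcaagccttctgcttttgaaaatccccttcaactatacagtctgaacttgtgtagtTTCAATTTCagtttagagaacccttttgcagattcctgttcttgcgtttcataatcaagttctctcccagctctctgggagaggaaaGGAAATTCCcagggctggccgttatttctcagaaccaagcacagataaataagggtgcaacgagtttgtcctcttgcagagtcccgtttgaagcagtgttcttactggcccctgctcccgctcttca
Rsad2: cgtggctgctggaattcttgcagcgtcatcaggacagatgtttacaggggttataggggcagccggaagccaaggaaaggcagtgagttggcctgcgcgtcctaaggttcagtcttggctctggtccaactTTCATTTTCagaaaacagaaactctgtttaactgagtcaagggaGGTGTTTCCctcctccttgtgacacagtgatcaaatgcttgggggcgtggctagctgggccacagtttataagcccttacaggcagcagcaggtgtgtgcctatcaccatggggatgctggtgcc
Acod1: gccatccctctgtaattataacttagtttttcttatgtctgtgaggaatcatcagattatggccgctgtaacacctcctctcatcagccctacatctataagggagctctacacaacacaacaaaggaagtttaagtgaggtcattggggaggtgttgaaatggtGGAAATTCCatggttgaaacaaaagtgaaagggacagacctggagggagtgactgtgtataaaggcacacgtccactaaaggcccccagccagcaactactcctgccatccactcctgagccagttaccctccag

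Cxcl9, Gbp5 and Rsad2 each have both an interferon and an NF-kB core, and Acod1 has an NF-kB core alone. The windows of Il12b and Ptgs2 hold none of the 3 patterns. Ifit2, among the largest gains of CPM (log2 9.14 ± 0.62), has no interferon or NF-kB core in its windows, and an E2F site in that at chr19:34550444-34550743. Of 503 genes called higher by 16-fold or more, 345 had a window, and the interferon core stood in 103 of 412 of their windows (25%), against 7.55% over all tested genes and 6.49% over genes not called. The NF-kB core stood in 13.1% of those windows, against 6.33% over all tested genes. The core of the interferon element was found in 18 of 33 windows of the antiviral genes and in 10 of 12 windows of the GTPases, and the NF-kB core in 6 of 12 windows of the chemokines and 8 of 21 windows of the cytokines. In lists in which few members rose, the interferon core stood in 13 of 58 windows of the cytosolic ribosomal protein genes and in 6 of 35 windows of the mitosis genes. A match is a run of letters and not a bound site, and windows of one gene can overlap.

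Slc7a2, Ass1, Nos2, Gch1 and Acod1, genes of arginine uptake and of nitric oxide and itaconate synthesis, were higher after LPS, while the nitric oxide and arginine list as a whole stood near the shares over all genes. Nos2, the inducible nitric oxide synthase (ENSMUSG00000020826, mm10 chromosome 11, 78920787 to 78960254), was between 2355 and 3168 CPM (median 2519) in LPS 8 h libraries and between 0.0674 and 2.04 CPM (median 0.135) in control libraries, a log2 change of 12.64 ± 0.66 (SE, edgeR adjusted p = 4.42e-18), or 14.08 without control replicate 3. Slc7a2, a transporter that brings arginine into the cell, was between 325 and 1085 CPM (median 749) in LPS 8 h libraries and between 2.83 and 7.81 CPM (median 4.31) in control libraries, with 7.15 within set A and 7.35 within set B. Ass1, which rebuilds arginine from citrulline, was between 54.96 and 129 CPM (median 116) in LPS 8 h libraries and between 9.51 and 13.7 CPM (median 12.2) in control libraries. Gch1, the first enzyme in the synthesis of the synthase's cofactor tetrahydrobiopterin, had a log2 fold change of 3.81 ± 0.14. Every LPS 8 h library was above every control in each of these genes. Spr, the last enzyme of the same cofactor pathway, fell by 1.48 ± 0.12. Ddah2, which clears methylated arginines, fell by 1.72 ± 0.21. Srm, the spermidine synthase, was between 6.04 and 14.7 CPM (median 8.57) in LPS 8 h libraries and between 22.6 and 47.9 CPM (median 42.4) in control libraries, a log2 fold change of -1.97 ± 0.38, so that of this list 6 of 16 tested members rose and 4 fell. On library totals 6 higher and 8 lower were called. Arg1, the arginase of alternative activation, was not called (log2 -1.52 ± 1.07, edgeR adjusted p = 0.203). Nos2 had log2 fold changes of 14.53 within set A and 11.78 within set B.

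Acod1, the enzyme that makes itaconate from the citric acid cycle intermediate cis-aconitate (ENSMUSG00000022126, mm10 chromosome 14, 103046977 to 103056573), was between 9086 and 11825 CPM (median 10719) in LPS 8 h libraries and between 0.663 and 5.94 CPM (median 1.71) in control libraries, a log2 change of 12.35 ± 0.54 (SE, edgeR adjusted p = 3.12e-20), or 12.95 without control replicate 3. Per length it stood at 4063 CPM per kb in LPS 8 h libraries and 0.803 CPM per kb in controls. Most other genes of this list moved little. Of its 27 tested members, Acod1 among them, 8 rose and 10 fell. The median log2 fold change was 0.02, with -0.01 within set A and 0.09 within set B, and on library totals 1 higher and 24 lower were called. The list members that fell furthest were Idh1 and Suclg2. Idh1 encodes the cytosolic isocitrate dehydrogenase, which is not a step of the cycle itself. Its level was 60.7 to 71.2 CPM (median 67.5) in LPS 8 h libraries and 154 to 203 CPM (median 179) in controls (log2 -1.40 ± 0.23). Suclg2, a succinyl-CoA ligase subunit, fell by 1.13 ± 0.14. Pdk1, a kinase that holds back pyruvate dehydrogenase, fell by 1.11 ± 0.16. Acod1 had log2 fold changes of 13.35 within set A and 11.85 within set B.

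In glycolysis, a hexose transporter gene and genes of the regulated first steps were among those that rose, while the list's share of higher members stood near that over all genes. Slc2a6, a hexose transporter, was between 925 and 1404 CPM (median 1316) in LPS 8 h libraries and between 14.2 and 30.9 CPM (median 22.5) in control libraries, a log2 change of 5.80 ± 0.23 (SE, edgeR adjusted p = 1.50e-21). Pfkfb3, which makes the activator of phosphofructokinase, was between 436 and 532 CPM (median 505) in LPS 8 h libraries and between 27.2 and 80.8 CPM (median 65.0) in control libraries, a log2 fold change of 3.06 ± 0.41, while at 2 h it stood at 0.31 against the same controls. Hk3, a hexokinase of myeloid cells, had one of 1.82 ± 0.13, and Hk2, the inducible hexokinase, one of 0.77 ± 0.23, which on library totals was no longer called. Shpk, the sedoheptulokinase of the pentose phosphate pathway, fell by 1.27 ± 0.17. Gpi1, which encodes the enzyme of the second step of glycolysis, was also lower (log2 -0.65, with -0.74 within set A and -0.52 within set B). In all 11 of 31 tested members rose and 5 fell in the glycolytic and pentose phosphate list (median 0.12, with 0.21 within set A and 0.18 within set B), and 7 higher and 19 lower were called on library totals. These 31 members are gene identifiers from 30 listed symbols. The share higher was 35.5%, against 34.2% over all genes, and the share lower was 16.1%, against 37.0%. Gapdh, often used as a reference gene, was not called and differed by 0.04 on the log2 scale.

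Nuclear genes of the respiratory chain differed by small amounts: 26 of 55 tested members rose and 4 fell with a median of 0.16, with 0.18 within set A and 0.23 within set B, and on library totals 1 higher and 50 lower were called. Cycs, the cytochrome c that carries electrons in the chain, stood apart in the list with between 201 and 229 CPM (median 217) in LPS 8 h libraries and between 37.4 and 74.8 CPM (median 62.0) in control libraries, a log2 change of 1.88 ± 0.25 (SE, edgeR adjusted p = 4.10e-08). All 37 genes of the mitochondrial chromosome had 0 counts in every library, so the chain's own mitochondrial transcripts were not measured.

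Lipid genes moved in both directions. Hmgcs1, an early enzyme of sterol synthesis, had a log2 fold change of 0.99 ± 0.32, which on library totals was no longer called. Dhcr7, an enzyme of the last steps to cholesterol, fell to between 6.94 and 12.5 CPM (median 10.1) in LPS 8 h libraries, against between 24.7 and 49.2 CPM (median 41.3) in controls (log2 -2.02 ± 0.16). Stard4, a sterol transport protein, fell by 1.26 ± 0.26. In the sterol list 6 of 25 tested members rose and 5 fell, and its median was 0.21, with 0.61 within set A and -0.17 within set B, with opposite signs in both sets, and on library totals 1 higher and 15 lower were called. Ch25h, the interferon-induced enzyme that makes 25-hydroxycholesterol, was between 8.001 and 23.3 CPM (median 13.1) in LPS 8 h libraries and between 0 and 0.451 CPM (median 0.318) in control libraries, with 6.16 within set A and 5.32 within set B. Nr1h3, which encodes the liver X receptor alpha, and its target Abcg1, an exporter of cholesterol, had log2 fold changes of 2.68 ± 0.14 and 1.62 ± 0.21, and Scarb1, the receptor for high-density lipoprotein, one of -0.95 ± 0.10. Hmgcs1 had log2 fold changes of 1.92 within set A and 0.38 within set B.

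In the list of fatty acid synthesis and storage 5 of 18 tested members rose and 8 fell: genes of elongation and desaturation were among those that fell, and genes of activation and storage among those that rose. Elovl6, which lengthens palmitate, was between 0.590 and 1.58 CPM (median 1.23) in LPS 8 h libraries and between 5.04 and 18.3 CPM (median 13.7) in control libraries, a log2 change of -3.46 ± 0.33 (SE, edgeR adjusted p = 2.04e-11). Scd2, a desaturase, and Fads1, a desaturase of polyunsaturated fatty acids, had log2 fold changes of -3.10 ± 0.48 and -2.41 ± 0.11. Acsl1, which attaches fatty acids to coenzyme A, was between 854 and 1442 CPM (median 1277) in LPS 8 h libraries and between 36.02 and 52.4 CPM (median 46.2) in control libraries (log2 4.74 ± 0.16). Dgat2, which makes triglyceride, had a log2 fold change of 3.92 ± 0.62. The groups were apart in Elovl6 and in Acsl1, and Acsl1 rose in both sets (4.74 within set A and 4.76 within set B). Of the genes of fatty acid oxidation 6 rose and 12 fell of 21 tested, among them Acadm, the medium-chain acyl-CoA dehydrogenase (log2 -1.19 ± 0.12), and Hadh (-1.12 ± 0.11), a dehydrogenase of the same spiral. Elovl6 had log2 fold changes of -2.71 within set A and -3.94 within set B and Dgat2 of 2.71 and 4.31.

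The genes of cell division fell nearly without exception. Of the DNA replication list 0 of 38 tested members rose and 36 fell, with a median log2 fold change of -2.49, with -2.59 within set A and -2.35 within set B. Rrm2, the regulated subunit of ribonucleotide reductase, which supplies deoxynucleotides (ENSMUSG00000020649, mm10 chromosome 12, 24708241 to 24714146), was between 1.32 and 5.60 CPM (median 3.38) in LPS 8 h libraries and between 58.4 and 139 CPM (median 111) in control libraries, a log2 change of -4.94 ± 0.47 (SE, edgeR adjusted p = 2.30e-11). Mcm2, a subunit of the replicative helicase, was between 2.37 and 7.18 CPM (median 4.79) in LPS 8 h libraries and between 56.6 and 97.9 CPM (median 76.0) in control libraries, with -4.56 within set A and -3.72 within set B. E2f2, a transcription factor of the S phase programme, had a log2 fold change of -4.71 ± 0.43. The exceptions that were not called were Rfc3, a clamp loader subunit (log2 0.35 ± 0.20, edgeR adjusted p = 0.106), and Mcm10, an initiation factor (log2 -0.58 ± 0.27, adjusted p = 0.0565). Pcna, the sliding clamp, fell by 0.62 ± 0.24, a call that was lost without LPS replicate 3, 4 or 5 (log2 -0.51, -0.51 and -0.50, edgeR adjusted p = 0.0595, 0.0598 and 0.0607) and in set A alone (-0.11). Rfc3 stood at -0.24 in set B alone. E2f2 had log2 fold changes of -5.94 within set A and -4.34 within set B, Rfc3 of 0.77 and -0.24 and Pcna of -0.11 and -1.37.

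Of the mitosis list 0 of 40 tested members rose and 39 fell, with a median of -3.96, with -4.25 within set A and -3.87 within set B. Cenpf, a kinetochore protein (ENSMUSG00000026605, mm10 chromosome 1, 189640606 to 189688086), was between 0.132 and 1.13 CPM (median 0.454) in LPS 8 h libraries and between 18.6 and 53.5 CPM (median 35.4) in control libraries, a log2 change of -5.91 ± 0.38 (SE, edgeR adjusted p = 7.53e-16). Anln, a scaffold of the cleavage furrow, was between 0.395 and 2.85 CPM (median 0.943) in LPS 8 h libraries and between 26.3 and 92.1 CPM (median 60.8) in control libraries. Kif23, a motor of the central spindle, had a log2 fold change of -5.39 ± 0.34. The groups did not overlap in Cenpf or Anln. The one tested member not called was Tpx2, a spindle assembly factor, at 0.38 ± 0.24 over all libraries and -0.55 in set B alone. At 2 h, against the same controls, the log2 fold changes were -0.52 for Cenpf, -0.23 for Anln and -0.48 for Rrm2. Tpx2 had log2 fold changes of 1.30 within set A and -0.55 within set B.

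Regulators of the G1 phase moved in both directions. Ccnd1, the cyclin D1 that M-CSF is known to induce, was between 41.6 and 165 CPM (median 81.8) in LPS 8 h libraries and between 226 and 537 CPM (median 342) in control libraries, a log2 change of -1.90 ± 0.42 (SE, edgeR adjusted p = 1.53e-04), with -1.33 within set A and -2.94 within set B, and it was not called in set A alone. Ccnd2, cyclin D2, moved the other way, with between 276 and 423 CPM (median 312) in LPS 8 h libraries and between 13.4 and 28.8 CPM (median 26.1) in control libraries and a log2 fold change of 3.77 ± 0.26. Myc fell by 1.66 ± 0.25 and its partner Max rose by 2.33 ± 0.12. Mxd1, which competes with MYC for MAX, rose by 4.22 ± 0.19. Cdkn1a, the p21 inhibitor of cyclin-dependent kinases, was between 782 and 2767 CPM (median 1450.3) in LPS 8 h libraries and between 274 and 491 CPM (median 336) in control libraries (log2 2.12 ± 0.33). Cdkn2c, the p18 inhibitor, was between 2.11 and 3.77 CPM (median 3.36) in LPS 8 h libraries and between 26.2 and 63.9 CPM (median 46.1) in control libraries (log2 -3.88 ± 0.21). Over this list 9 of 23 tested members rose and 9 fell, and on library totals 6 higher and 13 lower were called.

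DNA repair genes fell with the replication genes, as 2 of 30 tested members rose and 27 fell (median -2.48, with -2.34 within set A and -2.63 within set B). Brca2, a mediator of homologous recombination, was between 0.132 and 0.786 CPM (median 0.273) in LPS 8 h libraries and between 6.87 and 12.1 CPM (median 9.97) in control libraries, a log2 change of -4.64 ± 0.35 (SE, edgeR adjusted p = 9.52e-14). Exo1, an exonuclease of resection and mismatch repair, had a log2 fold change of -4.59 ± 0.55. Msh6, a mismatch repair gene named after its values were seen, fell by 3.32 ± 0.16. Mdm2, the ligase that degrades p53, rose by 1.59 ± 0.17. E2F letters stood in 16 of 37 windows of the DNA replication genes, against 8.20% of the windows of all tested genes, and in 5 of 35 windows of the mitosis genes. The windows of Cdk1 (chr10:69352863-69353162, minus strand), the kinase that starts mitosis, and of Mcm5 (chr8:75109259-75109558, plus strand), a helicase subunit, are shown as examples with E2F matches, in capitals. Cdk1 and Mcm5 had log2 fold changes of -3.19 and -2.58, while Cenpf and Rrm2, whose windows hold no E2F match, fell further.
Cdk1: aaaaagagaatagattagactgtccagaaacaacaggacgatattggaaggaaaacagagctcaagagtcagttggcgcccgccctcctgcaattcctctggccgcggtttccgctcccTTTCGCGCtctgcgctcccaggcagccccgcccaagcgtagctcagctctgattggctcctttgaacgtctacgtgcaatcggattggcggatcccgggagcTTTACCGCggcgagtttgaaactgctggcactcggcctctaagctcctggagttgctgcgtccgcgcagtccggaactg
Mcm5: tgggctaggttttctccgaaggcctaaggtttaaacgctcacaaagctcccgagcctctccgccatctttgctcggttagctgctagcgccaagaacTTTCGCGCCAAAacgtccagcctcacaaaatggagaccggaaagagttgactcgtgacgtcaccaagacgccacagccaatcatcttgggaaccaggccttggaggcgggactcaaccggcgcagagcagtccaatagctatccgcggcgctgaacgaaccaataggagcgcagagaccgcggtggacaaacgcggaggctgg Brca2 had log2 fold changes of -5.37 within set A and -4.31 within set B.

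In both windows the E2F pattern appears in a pair of places, and in Mcm5 the 2 matches overlap on opposite strands. The windows of Rrm2, Ccnb1 and Cenpf hold none of the 3 patterns. Those of Mcm3 and Clspn hold E2F matches, and that of Kif23 holds an NF-kB core and no E2F match.

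Ribosome assembly factors were lower while the ribosomal proteins themselves stayed near the median of all genes. Of the assembly list 2 of 29 tested members rose and 22 fell (median -0.83, with -0.77 within set A and -0.97 within set B). Dkc1, the pseudouridine synthase of ribosomal RNA, was between 3.68 and 6.74 CPM (median 4.99) in LPS 8 h libraries and between 14.4 and 23.9 CPM (median 19.3) in control libraries, a log2 change of -1.94 ± 0.29 (SE, edgeR adjusted p = 4.17e-07), and Rrp1b and Wdr12, assembly factors of the large subunit, had log2 fold changes of -2.78 ± 0.30 and -2.06 ± 0.13. Of the cytosolic ribosomal proteins 8 of 70 tested members rose and 19 fell, with a median of -0.03, with -0.02 within set A and -0.02 within set B, and on library totals 0 higher and 68 lower were called. In the list of amino acid, nucleotide and vitamin metabolism 11 of 29 tested members rose and 10 fell, with 8 higher and 15 lower on library totals. Uck2, a uridine-cytidine kinase, was between 2.19 and 7.92 CPM (median 3.83) in LPS 8 h libraries and between 22.04 and 52.9 CPM (median 38.1) in control libraries (log2 -3.05 ± 0.42). Upp1, the phosphorylase that breaks uridine down, was between 68.1 and 117 CPM (median 93.0) in LPS 8 h libraries and between 0.121 and 0.944 CPM (median 0.436) in control libraries (log2 7.64 ± 0.48). Slc28a2, a concentrative nucleoside transporter, rose by 5.18 ± 0.17. Glul, the glutamine synthetase, was between 20.3 and 36.4 CPM (median 24.5) in LPS 8 h libraries and between 110.2 and 155 CPM (median 124) in control libraries (log2 -2.31 ± 0.21). Kynu, an enzyme of tryptophan breakdown, had 612 counts over the LPS 8 h libraries and 6 over the controls, a ratio of 160.3 (95% counting interval 73.2 to 438) and log2 fold changes of 7.82 within set A and 6.01 within set B. Upp1 had log2 fold changes of 8.61 within set A and 7.24 within set B.

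**Figure D3:**
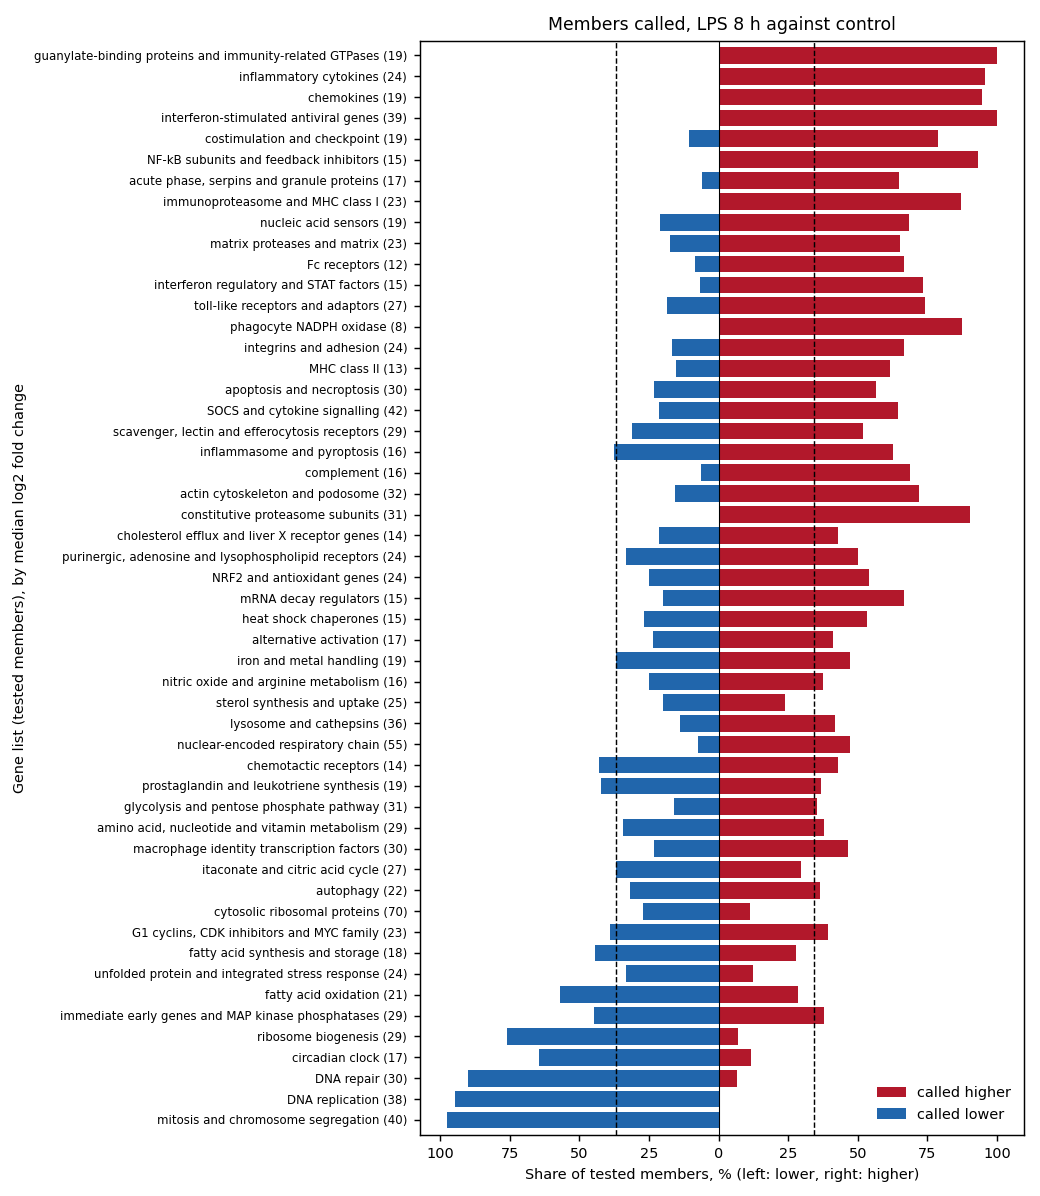
Share of tested members called higher (red, to the right) and lower (blue, to the left) in LPS 8 h against control for the gene lists with 8 or more tested members, ordered by median log2 fold change. The dashed lines mark the shares over all tested genes, 34.2% higher and 37.0% lower. The guanylate-binding proteins lead with 19 of 19 members higher, and the mitosis list closes the order with 39 of 40 lower.

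Genes of antigen processing were mostly higher after LPS. Of the constitutive proteasome subunits 28 of 31 tested members rose and 0 fell, but by small amounts (median 0.53, with 0.54 within set A and 0.59 within set B), and on library totals 7 higher and 19 lower were called. The largest was Psma6, an alpha ring subunit, with between 401 and 506 CPM (median 475) in LPS 8 h libraries and between 106 and 133 CPM (median 121) in control libraries and a log2 change of 1.95 ± 0.11 (SE, edgeR adjusted p = 1.68e-17). In the list of the immunoproteasome and MHC class I, 20 of 23 tested members rose and 0 fell (median 2.71, with 2.78 within set A and 2.65 within set B). Nlrc5, the transactivator of MHC class I genes, was between 463 and 743 CPM (median 576) in LPS 8 h libraries and between 22.5 and 35.9 CPM (median 29.4) in control libraries (log2 4.36 ± 0.26). B2m, the light chain of MHC class I, was between 4434 and 5476 CPM (median 4737) in LPS 8 h libraries and between 1043 and 1863 CPM (median 1184) in control libraries (log2 1.95 ± 0.17). Canx, which encodes the endoplasmic reticulum chaperone calnexin, was among the 3 members of that list not called (log2 0.15 ± 0.11, edgeR adjusted p = 0.198).

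In the list named for MHC class II 8 of 13 tested members rose and 2 fell (median 1.08, with 1.09 within set A and 1.22 within set B). Ciita, the transactivator of MHC class II, was between 3.62 and 24.3 CPM (median 16.9) in LPS 8 h libraries and between 0.241 and 2.49 CPM (median 1.13) in control libraries (log2 3.84 ± 0.47). H2-Ab1, a class II beta chain, had a log2 fold change of 2.53 ± 0.62. The 2 members that fell, Mr1 and Cd1d1, encode MHC class I-like molecules and not class II. Mr1, which presents vitamin B metabolites to MAIT cells, fell by 1.53 ± 0.13, and Cd1d1 had a log2 fold change of -0.36. Among costimulatory and checkpoint genes 15 of 19 tested members rose and 2 fell (median 3.40, with 3.73 within set A and 3.52 within set B). Cd40, the receptor through which T cells license antigen-presenting cells, was between 2298 and 2585 CPM (median 2409) in LPS 8 h libraries and between 8.40 and 15.1 CPM (median 11.6) in control libraries, a log2 change of 7.73 ± 0.32 (SE, edgeR adjusted p = 4.64e-21), and Slamf1 had one of 7.44 ± 0.67. Havcr2, which encodes the receptor TIM-3, was between 11.1 and 18.1 CPM (median 13.4) in LPS 8 h libraries and between 52.9 and 81.8 CPM (median 69.0) in control libraries (log2 -2.27 ± 0.29). Vsir, which encodes the checkpoint protein VISTA, fell by 1.06 ± 0.25. Slamf1 had log2 fold changes of 6.26 within set A and 7.91 within set B.

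Pattern recognition receptors moved in both directions. In the list of Toll-like receptors and adaptors 20 of 27 tested members rose and 5 fell (median 1.71, with 1.72 within set A and 1.72 within set B). Cd14, the co-receptor for LPS, was between 739.7 and 1402 CPM (median 1169.7) in LPS 8 h libraries and between 129 and 251 CPM (median 197) in control libraries, a log2 change of 2.53 ± 0.17 (SE, edgeR adjusted p = 4.66e-15). Tlr2, the receptor for bacterial lipopeptides, had a log2 fold change of 3.94 ± 0.17. Tlr4, the receptor for LPS, was not called (log2 -0.42 ± 0.21, edgeR adjusted p = 0.0697), and the sets had opposite signs, with 0.17 within set A and -1.11 within set B. Tlr5, the receptor for flagellin, had 3 counts over the LPS 8 h libraries and 84 over the controls, a ratio of control to LPS 8 h of 17.8 (95% counting interval 5.89 to 88.2), with log2 fold changes of LPS 8 h over control of -2.90 within set A and -4.87 within set B. Tlr13, which senses bacterial ribosomal RNA, was between 147 and 157 CPM (median 154) in LPS 8 h libraries and between 320.4 and 396.2 CPM (median 362) in control libraries (log2 -1.25 ± 0.10). Cd14 had log2 fold changes of 1.91 within set A and 3.21 within set B.

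In the list named for Fc receptors 8 of 12 tested members rose, the IgG receptors Fcgr1 and Fcgr2b among them, and 1 fell. Fcgr1, the high-affinity receptor, was between 1255 and 1600.2 CPM (median 1369) in LPS 8 h libraries and between 79.4 and 101.3 CPM (median 87.3) in control libraries, a log2 change of 3.998 ± 0.32 (SE, edgeR adjusted p = 3.27e-13) at 8 h, and it stood at -0.47 at 2 h against the same controls. Fcgr2b, the inhibitory receptor, rose by 3.01 ± 0.34. The 1 member that fell, Trem2, encodes a lipid receptor and not an Fc receptor (log2 -0.58 ± 0.19). Among scavenger receptors and lectins 15 of 29 tested members rose and 9 fell, and on library totals 11 higher and 11 lower were called. Clec4e, the receptor for mycobacterial cord factor, was between 2428 and 4880.4 CPM (median 4022) in LPS 8 h libraries and between 13.7 and 32.5 CPM (median 26.9) in control libraries (log2 7.28 ± 0.26). Marco, a scavenger receptor for bacteria, was between 208 and 548 CPM (median 369.3) in LPS 8 h libraries and between 5.04 and 17.8 CPM (median 12.4) in control libraries (log2 4.98 ± 0.46). Cd163, the receptor for haemoglobin with haptoglobin, was between 0 and 3.34 CPM (median 2.03) in LPS 8 h libraries and between 8.12 and 14.2 CPM (median 11.3) in control libraries (log2 -2.58 ± 0.32). Mrc1, the mannose receptor, fell by 0.76 ± 0.21. The groups were apart in Clec4e and Marco. Cd163 had log2 fold changes of -3.78 within set A and -2.03 within set B.

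Chemotactic receptors were divided, with 6 higher and 6 lower of 14 tested, and 5 higher and 7 lower on library totals. Fpr2 and Fpr1, receptors for bacterial formyl peptides, had log2 fold changes of 8.86 ± 0.44 and 8.59 ± 0.71, and Fpr2 was between 125 and 235 CPM (median 193) in LPS 8 h libraries and between 0.0603 and 0.934 CPM (median 0.340) in control libraries. Cxcr4, the receptor for CXCL12, was between 0.302 and 2.26 CPM (median 1.26) in LPS 8 h libraries and between 11.7 and 49.7 CPM (median 31.1) in control libraries, a log2 change of -4.54 ± 0.44 (SE, edgeR adjusted p = 3.44e-11), with -4.81 within set A and -4.46 within set B. Gpr183, a receptor for oxysterols made from the product of Ch25h, was between 0.151 and 2.83 CPM (median 1.45) in LPS 8 h libraries and between 21.4 and 32.1 CPM (median 27.4) in control libraries (log2 -4.06 ± 0.64). Cx3cr1, the fractalkine receptor, fell by 2.09 ± 0.70. Of the receptors for nucleotides, adenosine and lysophospholipids 12 of 24 tested members rose and 8 fell, with 8 higher and 12 lower on library totals. Adora2a, the adenosine receptor that raises cyclic AMP, was between 101.3 and 246 CPM (median 173) in LPS 8 h libraries and between 0.0694 and 0.540 CPM (median 0.225) in control libraries (log2 9.23 ± 0.42). Gpr84, a receptor for medium-chain fatty acids, had a log2 fold change of 6.99 ± 0.59. P2ry1, an ADP receptor, and Cnr2, the cannabinoid receptor of immune cells, had log2 fold changes of -3.78 ± 0.29 and -3.89 ± 0.26. Fpr2 had log2 fold changes of 10.15 within set A and 8.43 within set B, Gpr183 of -5.27 and -3.58 and Cx3cr1 of -2.86 and -1.73.

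Genes of cell death and eicosanoids followed. Of the inflammasome list 10 of 16 tested members rose and 6 fell (median 0.79, with 0.83 within set A and 1.02 within set B). Casp4, which in the mouse encodes caspase-11, the sensor of cytosolic LPS, was between 343 and 480.0 CPM (median 397.4) in LPS 8 h libraries and between 10.4 and 21.1 CPM (median 15.6) in control libraries (log2 4.70 ± 0.25). Mefv, which encodes pyrin, had a log2 fold change of 6.56 ± 0.43. Nlrp1b was between 1.41 and 5.70 CPM (median 3.22) in LPS 8 h libraries and between 14.5 and 41.2 CPM (median 26.4) in control libraries, a log2 change of -3.03 ± 0.39 (SE, edgeR adjusted p = 2.10e-08). P2rx7, the ATP receptor that triggers the NLRP3 inflammasome, fell by 1.08 ± 0.10. Il18bp, the decoy of interleukin 18, rose by 4.74 ± 0.28, beside Il18 itself at 4.32 ± 0.17. In apoptosis, Bcl2a1a and Bcl2a1d, near-identical copies of an anti-apoptotic gene between which reads may be split, rose by 7.79 ± 0.26 and 6.10 ± 0.16. Cflar, the inhibitor of caspase-8, rose by 4.59 ± 0.13. Bcl2, another anti-apoptotic gene, was between 2.64 and 5.75 CPM (median 3.89) in LPS 8 h libraries and between 13.2 and 26.8 CPM (median 20.9) in control libraries (log2 -2.28 ± 0.32). Bmf, a pro-apoptotic member of its family, fell by 2.81 ± 0.49. Bmf had log2 fold changes of -4.09 within set A and -1.81 within set B.

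Inducible enzymes of prostaglandin synthesis rose, and the constitutive cyclooxygenase and a prostaglandin receptor fell. Ptgs2, the inducible cyclooxygenase (ENSMUSG00000032487, mm10 chromosome 1, 150100031 to 150108227), was between 2495 and 3864 CPM (median 3235) in LPS 8 h libraries and between 0.62501 and 2.72 CPM (median 1.49) in control libraries, a log2 change of 11.06 ± 0.39 (SE, edgeR adjusted p = 1.18e-22). Ptges, the inducible prostaglandin E synthase, was between 96.3 and 374.5 CPM (median 271) in LPS 8 h libraries and between 1.203 and 3.23 CPM (median 2.495) in control libraries (log2 6.73 ± 0.32). Pla2g4a, which frees arachidonic acid, had a log2 fold change of 2.75 ± 0.31. Each of these was apart from its controls. Ptgs1, the constitutive cyclooxygenase, fell by 1.499 ± 0.24. Ptger2, a receptor for prostaglandin E, fell by 1.87 ± 0.27 at 8 h while it stood at 1.56 at 2 h against the same controls. The list as a whole had 7 members higher and 8 lower of 19 tested. Ptger2 had log2 fold changes of -2.81 within set A and -1.23 within set B.

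Oxidant and metal genes changed in both directions. Of the NADPH oxidase that makes superoxide in phagocytes 7 of 8 tested members rose and 0 fell (median 1.63, with 1.42 within set A and 1.88 within set B), and Cybb, its membrane subunit, was between 3363 and 3998 CPM (median 3617) in LPS 8 h libraries and between 328 and 425 CPM (median 346) in control libraries (log2 3.35 ± 0.11). Sod2, the mitochondrial superoxide dismutase, was between 1222 and 1803 CPM (median 1578) in LPS 8 h libraries and between 44.1 and 61.7 CPM (median 54.99) in control libraries, a log2 change of 4.88 ± 0.12 (SE, edgeR adjusted p = 2.53e-27). Slc7a11, the cystine importer, had a log2 fold change of 5.37 ± 0.42. Gclc, the catalytic subunit of the first enzyme of glutathione synthesis, fell by 1.56 ± 0.23. In iron handling Slc40a1, which encodes ferroportin, the iron exporter (ENSMUSG00000025993, mm10 chromosome 1, 45908068 to 45926523), was between 12.6 and 41.0 CPM (median 19.2) in LPS 8 h libraries and between 136 and 399 CPM (median 195) in control libraries, a log2 change of -3.38 ± 0.67 (SE, edgeR adjusted p = 3.68e-05), with -3.33 within set A and -3.46 within set B. Fth1, the ferritin heavy chain that stores iron, was between 25621 and 31727 CPM (median 28138) in LPS 8 h libraries and between 12088 and 14866 CPM (median 13024) in control libraries (log2 1.09 ± 0.09). Cp, the ferroxidase ceruloplasmin, had a log2 fold change of 9.41 ± 0.31, and Lcn2, which binds bacterial siderophores, one of 4.84 ± 0.64.

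Stress and degradation genes moved little as groups. In the unfolded protein and integrated stress list 3 of 24 tested members rose and 8 fell (median -0.24, with -0.28 within set A and -0.44 within set B), with Trib3, a pseudokinase induced by ATF4, at -2.34 ± 0.26. Of the heat shock list 8 of 15 tested members rose and 4 fell, with 4 higher and 9 lower on library totals. Hspa1a and Hspa1b, which are near-identical copies, rose by 3.79 ± 0.36 and 4.54 ± 0.27. In the lysosome list 15 of 36 tested members rose and 5 fell (median 0.18, with 0.27 within set A and 0.18 within set B), and on library totals 6 higher and 27 lower were called. Ctsc, the cathepsin that activates granule proteases, was between 963 and 1628 CPM (median 1493) in LPS 8 h libraries and between 80.8 and 229 CPM (median 147) in control libraries (log2 3.21 ± 0.30). Tfeb, a regulator of lysosome genes, fell by 0.98 ± 0.20. Of the autophagy genes 8 rose and 7 fell of 22 tested (on library totals 4 higher and 17 lower), with Sqstm1, the cargo receptor p62, at 1.77 ± 0.16 and Atg7 at -1.11 ± 0.07. Hspa1a had log2 fold changes of 2.79 within set A and 5.45 within set B.

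**Figure D4:**
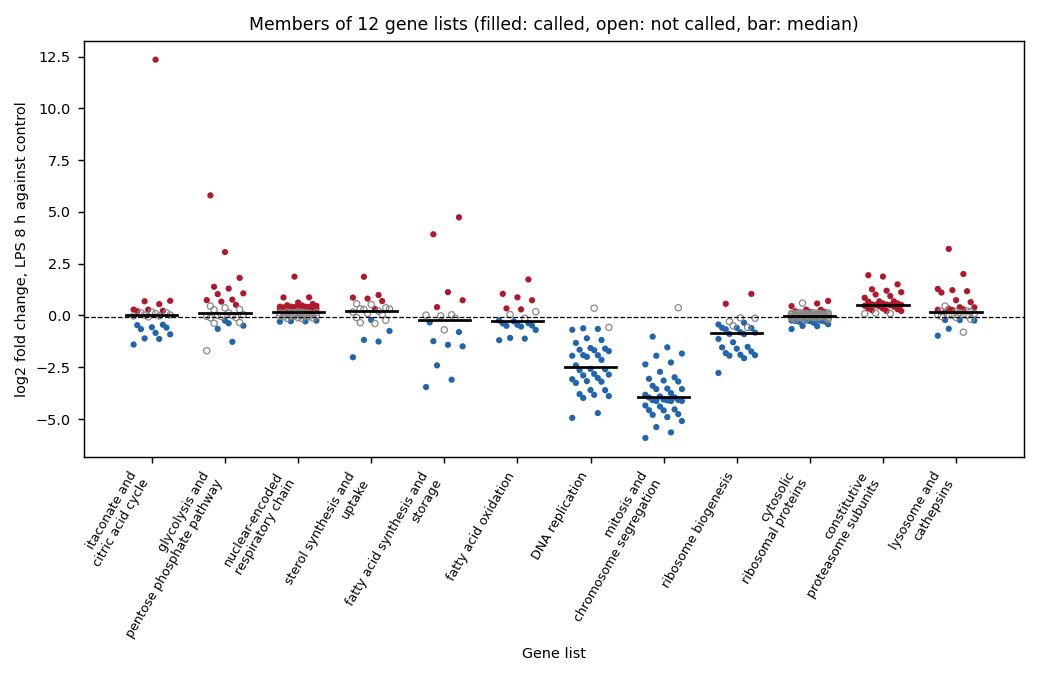
Log2 fold change of each tested member in 12 gene lists of metabolism, growth and degradation, LPS 8 h against control. Filled points are called members and open points are not, the short bar is the median of the list, and the dashed line is the median of all tested genes (-0.06). Members of the mitosis and DNA replication lists lie almost all below 0, while the respiratory chain, ribosomal protein and lysosome lists crowd around the dashed line with few members away from it.

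Transcription factors of the macrophage lineage were rearranged. Of their list 14 members rose and 7 fell of 30 tested, with 13 higher and 13 lower on library totals. Cebpa, a factor of myeloid differentiation, was between 2.24 and 5.47 CPM (median 3.81) in LPS 8 h libraries and between 82.6 and 117 CPM (median 103) in control libraries, a log2 change of -4.75 ± 0.24 (SE, edgeR adjusted p = 9.91e-19). Cebpb, the family member of inflammation, rose by 2.76 ± 0.21. Pparg, the fatty acid receptor of alternative activation, was between 1.97 and 4.98 CPM (median 3.37) in LPS 8 h libraries and between 33.7 and 42.2 CPM (median 38.1) in control libraries (log2 -3.46 ± 0.17). Batf2 and Batf, partners of AP-1 and IRF factors, rose by 6.12 ± 0.29 and 5.15 ± 0.41. Irf8, a lineage factor that interferon induces, was between 196 and 400.1 CPM (median 256) in LPS 8 h libraries and between 95.8 and 127 CPM (median 111) in control libraries (log2 1.29 ± 0.20), against -0.68 at 2 h. Csf1r, the receptor for M-CSF, was not called (log2 -0.13 ± 0.15, edgeR adjusted p = 0.447).

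Cytokine receptors and their inhibitors were mostly higher, with 27 of 42 tested members up and 9 down. Il15ra, which presents interleukin 15 to other cells, was between 102 and 236 CPM (median 144) in LPS 8 h libraries and between 1.99 and 3.23 CPM (median 3.03) in control libraries (log2 5.82 ± 0.26). Il2ra, the alpha chain of the interleukin 2 receptor, had a log2 fold change of 6.03 ± 1.02. Ifngr1, the ligand-binding chain of the interferon gamma receptor, was between 39.1 and 56.03 CPM (median 49.4) in LPS 8 h libraries and between 81.1 and 129.6 CPM (median 93.1) in control libraries (log2 -1.02 ± 0.14), and it stood at 0.995 at 2 h against the same controls. Immediate early genes had 11 members higher and 13 lower of 29, and their median was -0.43, with -0.81 within set A and 0.29 within set B, of opposite sign in the sets. Fosb, an AP-1 subunit, had 7 counts over the LPS 8 h libraries and 271 over the controls, a ratio of control to LPS 8 h of 24.6 (95% counting interval 11.8 to 61.9). Dusp6, the phosphatase of ERK, was between 6.88 and 13.7 CPM (median 8.62) in LPS 8 h libraries and between 62.9 and 85.1 CPM (median 79.4) in control libraries (log2 -3.11 ± 0.20). Among regulators of mRNA decay, Zfp36, which encodes tristetraprolin, was between 898 and 1269.7 CPM (median 1139) in LPS 8 h libraries and between 53.2 and 104 CPM (median 79.3) in control libraries (log2 3.82 ± 0.19), and its relative Zfp36l1 was between 1.05 and 2.45 CPM (median 1.77) in LPS 8 h libraries and between 10.2 and 25.3 CPM (median 13.97) in control libraries (log2 -3.03 ± 0.41). Every library was on its group's side in both genes, in opposite directions. Il2ra had log2 fold changes of 5.09 within set A and 6.20 within set B and Zfp36l1 of -3.63 and -2.35.

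Clock genes fell in most cases, as 2 of 17 tested members rose and 11 fell (median -0.89, with -1.68 within set A and -0.79 within set B). Nr1d1, which encodes the repressor REV-ERB alpha, was between 1.40 and 4.28 CPM (median 2.60) in LPS 8 h libraries and between 7.82 and 26.3 CPM (median 13.7) in control libraries, a log2 change of -2.49 ± 0.34 (SE, edgeR adjusted p = 7.17e-08). Npas2, a partner of BMAL1, had a log2 fold change of -3.83 ± 0.62. Dbp, an output gene of the clock, was between 0.754 and 4.38 CPM (median 0.790) in LPS 8 h libraries and between 6.47 and 10.8 CPM (median 7.27) in control libraries, a log2 fold change of -2.45 ± 0.46, or -3.19 without LPS replicate 5, the library with muscle transcripts, which was the highest of its group. Nfil3, which opposes DBP, rose by 1.72 ± 0.33. The labels give no time of day for the cultures. Nr1d1 had log2 fold changes of -3.08 within set A and -2.06 within set B and Dbp of -3.31 and -1.77.

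Genes of secreted and matrix proteins were mostly higher. In the complement list 11 of 16 tested members rose and 1 fell, and on library totals 7 higher and 6 lower were called. C3, the central component, was between 1332 and 2533 CPM (median 2102) in LPS 8 h libraries and between 5.67 and 10.7 CPM (median 7.10) in control libraries, a log2 change of 8.05 ± 0.47 (SE, edgeR adjusted p = 8.09e-17). Cfb, factor B of the alternative pathway, had 690 counts over the LPS 8 h libraries and 1 over the controls, a ratio of 1084 (95% counting interval 194 to 42879.6). Saa3, an acute phase protein of macrophages, was between 1132 and 6479 CPM (median 4265) in LPS 8 h libraries and between 0.694 and 6.79 CPM (median 3.01) in control libraries (log2 10.33 ± 0.76), and Serpina3f and Serpina3g, protease inhibitors of one gene cluster between whose members reads can be split, had log2 fold changes of 11.59 ± 0.58 and 10.32 ± 0.53, with 12.20 for Serpina3f without control replicate 5. Of the matrix list 15 of 23 tested members rose and 4 fell. Mmp14, a membrane-bound metalloproteinase, was between 289 and 1139.6 CPM (median 841) in LPS 8 h libraries and between 1.94 and 6.27 CPM (median 4.02) in control libraries (log2 7.59 ± 0.52). Plau, the urokinase that activates plasminogen, was between 88.0 and 153 CPM (median 109.6) in LPS 8 h libraries and between 615 and 1781 CPM (median 1268) in control libraries (log2 -3.38 ± 0.38). Adam8, a membrane metalloproteinase, fell by 1.75 ± 0.19. Serpina3f had log2 fold changes of 12.10 within set A and 10.82 within set B, Serpina3g of 11.57 and 9.18 and Plau of -2.71 and -3.96.

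Adhesion and cytoskeleton genes rose more often than they fell. Among integrins and adhesion molecules 16 of 24 tested members rose and 4 fell. Icam1, the ligand of leukocyte integrins, was between 1297 and 2451 CPM (median 1842) in LPS 8 h libraries and between 35.9 and 49.6 CPM (median 39.7) in control libraries (log2 5.50 ± 0.18). Itgal, the alpha chain of LFA-1, had a log2 fold change of 4.36 ± 0.27. Itga6, a chain of laminin receptors, fell by 2.09 ± 0.14. Of the actin list 23 of 32 tested members rose and 5 fell, and on library totals 12 higher and 16 lower were called. Actb, which encodes the cytoplasmic beta-actin often used as a reference gene, was between 15493 and 20044 CPM (median 17100.5) in LPS 8 h libraries and between 4728 and 6256 CPM (median 5089) in control libraries, a log2 change of 1.72 ± 0.15 (SE, edgeR adjusted p = 3.90e-12), with 1.54 within set A and 1.92 within set B. Fscn1, which bundles actin in dendritic processes, rose by 4.92 ± 0.27.

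The most abundant transcripts per length changed in part. Lyz2, which encodes lysozyme, had the highest mean level per kb of exon in both groups. It stood at 8510.4 CPM per kb in LPS 8 h libraries and 8659 CPM per kb in controls. Ccl5, Fth1, Ccl3 and Actb followed after LPS, at 8431, 8154, 7116 and 6407 CPM per kb. The order differed by set: in the LPS 8 h libraries of set A, Fth1 and Ccl5 were at 8020 and 7890.0 CPM per kb and Lyz2 at 6972 CPM per kb, and in those of set B they were at 8288 and 8972 CPM per kb and Lyz2 at 10050 CPM per kb. In controls the next were Psap, Spp1 and Fth1, at 4215, 4004 and 3828 CPM per kb. Psap encodes the precursor of the lysosomal saposins, and Spp1 encodes osteopontin. The length used is that of all annotated exons of a gene merged, and the order depends on it. Before division by length, mean Fth1 was above mean Lyz2 in both groups. Fth1 stood at 28286 CPM and Lyz2 at 11200 CPM after LPS, and at 13281 and 11395 CPM in controls.

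Some genes were called at 8 h while their 2 h libraries lay near the controls. These were taken as genes whose 2 h libraries all lay within the range of the controls of both sets, widened by 20%. That rule does not show that a gene had not moved at 2 h. Serpina3g was the largest of those that were higher, and it was between 409 and 1094 CPM (median 553) at 8 h, between 0.213 and 1.05 CPM (median 0.778) at 2 h and between 0 and 0.944 CPM (median 0.557) in controls. Il18, which is made without a signal peptide and matured by caspase-1, was between 114 and 167 CPM (median 121) at 8 h, between 6.02 and 10.4 CPM (median 7.34) at 2 h and between 4.92 and 9.70 CPM (median 5.88) in controls, with a log2 difference between 8 h and 2 h of 4.09 ± 0.17 (SE, edgeR adjusted p = 3.48e-20). Phf11a, Pla2g16, a phospholipase, and Mov10, an RNA helicase, met the same rule, with log2 fold changes at 8 h of 7.81 ± 0.59, 4.29 ± 0.25 and 3.88 ± 0.17. Those that fell by the same rule included the cell division genes Pimreg, Ccna2, Cdc20, Kif2c and Cep55. Their log2 fold changes at 8 h were -5.60 ± 0.38, -5.10 ± 0.49, -4.80 ± 0.36, -4.74 ± 0.42 and -4.52 ± 0.46. Within set B, Pimreg was already lower at 2 h, at 27.6 to 29.9 CPM against 43.5 to 49.9 CPM in controls. Over both sets its log2 fold change at 2 h was -0.65 (edgeR adjusted p = 0.052). Pla2g16 had log2 fold changes of 5.03 within set A and 3.76 within set B, Pimreg of -6.74 and -5.26 and Cep55 of -5.49 and -4.25.

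Other genes were called against control in opposite directions at 2 h and at 8 h. Pml, the core protein of nuclear bodies, was between 232 and 432 CPM (median 331) at 8 h, between 17.9 and 35.9 CPM (median 20.7) at 2 h and between 27.5 and 40.5 CPM (median 35.2) in controls. March1, a ubiquitin ligase that removes MHC class II from the surface, had log2 fold changes of -1.30 at 2 h and 2.87 ± 0.34 at 8 h against the same controls, and between 8 h and 2 h it differed by 4.17 ± 0.37 (SE, edgeR adjusted p = 7.86e-12). Egr2, an early growth response factor, was between 1.71 and 10.05 CPM (median 8.001) at 8 h, between 56.7 and 103 CPM (median 65.6) at 2 h and between 18.3 and 29.5 CPM (median 19.1) in controls. Rhob, a small GTPase of endosomes, had log2 fold changes of 1.68 at 2 h and -1.49 ± 0.16 at 8 h. Inf2, a formin, followed the order of Rhob, with 0.46 at 2 h and -2.64 ± 0.12 at 8 h.

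**Figure D5:**
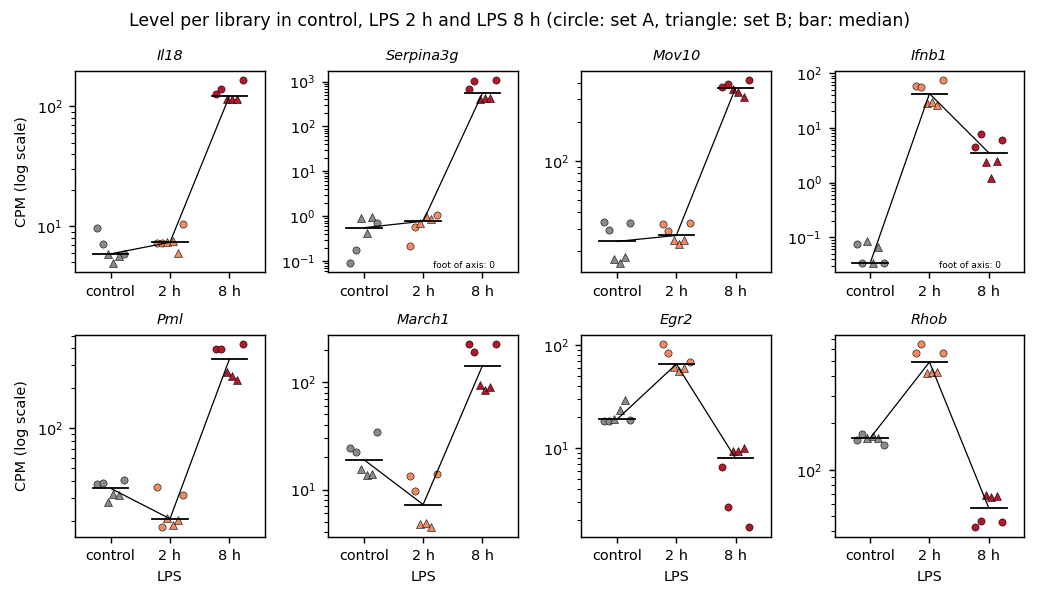
Level in CPM (log axis) of 8 genes in WT control, LPS 2 h and LPS 8 h libraries, with a point per library and a line through the group medians. Il18, Serpina3g and Mov10 lie within the widened range of the controls at 2 h and above the controls at 8 h. Lying within that range does not show that they had not moved at 2 h. Circles are set A and triangles set B, and 0 is drawn at the foot. Ifnb1 is highest at 2 h, Pml and March1 have a lower median than control at 2 h and lie above control at 8 h, and Egr2 and Rhob lie above control at 2 h and below it at 8 h.

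The lists of markers for other marrow and tissue cells give the following sums. The 14 neutrophil markers summed to 36.5 to 242 CPM in LPS 8 h libraries and to 31.8 to 226 CPM in controls, and in both groups set B was the higher set. The mast cell list was higher in sum, with 152 to 211 CPM in LPS 8 h libraries and 4.34 to 8.95 CPM in controls, through Hdc, the histidine decarboxylase, at between 151 and 208 CPM (median 181) in LPS 8 h libraries and between 0 and 0.659 CPM (median 0.112) in control libraries, while its other tested members, Kit and Gata2, had log2 fold changes of -2.23 and 0.23. The T and NK cell list summed to 19.2 to 28.3 CPM in LPS 8 h libraries and 3.97 to 11.98 CPM in controls, with Lck and Cd247 higher (log2 4.59 and 3.69), and the defining markers Cd3e, Gzma, Ncr1 and Trbc2 had no count in either group. Cd3d, Cd3g and Nkg7 had no count in LPS 8 h libraries and 2, 1 and 9 counts over the controls, Klrb1c had 1 count over LPS 8 h libraries and 11 over the controls, and Cd8a had 38 over LPS 8 h libraries and 0 over the controls. Cd4 had a median of 7.63 CPM in LPS 8 h libraries and 8.24 CPM in controls. The dendritic cell list summed to 94.8 to 114 CPM in LPS 8 h libraries and 49.5 to 87.2 CPM in controls. Of its 9 tested members 5 were called higher and 0 lower. Itgax, the most abundant of the list, had a median of 68.0 CPM in LPS 8 h libraries and 68.3 CPM in controls. Ccr7, the receptor that guides cells to lymph nodes, rose by 5.62 ± 1.18. Of the skeletal muscle list 12 of 12 tested members were called higher, and without LPS replicate 5 their calls came to 1 higher and 1 lower. The stromal list summed to 286 CPM in that library, against 57.9 to 125 CPM in the other LPS 8 h libraries and 43.1 to 77.1 CPM in controls. Of its 9 tested members 7 were called higher and 0 lower, and without LPS replicate 5 the calls came to 4 higher and 0 lower. B cell markers summed to 3.24 to 27.9 CPM in LPS 8 h libraries and 12.4 to 34.1 CPM in controls, and erythroid and megakaryocyte markers to 124 to 238 CPM in LPS 8 h libraries and 119 to 205 CPM in controls. The part of these markers in the results above was not tested. Without LPS replicates 5 and 6, 4306 genes were called higher and 4615 lower, against 4432 and 4795 with them. Kit had log2 fold changes of -2.99 within set A and -1.94 within set B, Lck of 5.21 and 3.51 and Cd247 of 2.76 and 4.58. Ccr7 had log2 fold changes of 4.32 within set A and 5.76 within set B.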

How the data were processed

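The authors deposited raw counts per gene for each library, and the counts are whole numbers with no normalization. The submitters' processing notes name HTSeq and the mm10 build. The choice of aligner, annotation, strand setting and HTSeq version is not given in the sources used here, so overlapping and antisense genes cannot be told apart. Symbols, positions and exon lengths come from GENCODE release M21, which matched 54165 of 54232 gene identifiers. Library totals were 8953489 to 15112452 counts in the 12 libraries compared.

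The counts were filtered with filterByExpr, scaled by TMM and fitted with edgeR 4.0.16 in R 4.3.3, with a group term over all 36 libraries and no covariates. Genes with a quasi-likelihood adjusted p (Benjamini-Hochberg) below 0.05 are called. Alternatives used DESeq2 1.42.0, limma 3.58.1, other scalings, filters and subsets of libraries, and the steps were tested on simulated data. CPM per kb divides by the merged length of all annotated exons of a gene, which can be longer than its transcript. Ratios of genes near 0 compare summed counts, with exact 95% intervals, and a floor of 3 counts stands for a group at 0.

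Members and gene lists were chosen with earlier results of these data known. Genes were named by rule. First came the 15 largest changes each way among called genes of 30 CPM or more whose groups did not overlap. Next were the 10 most abundant per length, the 8 largest gains and the 8 largest losses of CPM. Up to 3 members of each list in each direction and a fixed list of macrophage genes were added. So were the 8 largest called changes each way with 2 h libraries inside the widened control range, and 6 each way that were opposite at 2 h. Only a part of them is described, and some are not reported here. Arg1, Canx, Ccl6, Ccr7, Cd247, Cdk1, Cebpb, Gata2, Gbp9, Gbp10, Hdc, Ifnb1, Il12a, Il19, Kit, Lck, Mcm10, Mcm5, Msh6, Oas2, Oas3, Pcna, Rfc3 and Tpx2 were named after their values were seen.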

Additional observations from a re-analysis of the deposited data

Results flagged for a closer look

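Among the genes given above with values per library and the marker sums, 170 groups of 6 libraries were checked for a library apart from the other 5, and 13 (7.65%) had a gap to the nearest library above Dixon's 95% critical value, as a share of the group's range. Chance gives this in about 1 of 20 groups.

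In controls, replicate 3 was the highest in 3 activation genes. It had 1.87 CPM of Il1b (group median 0.225), 2.04 CPM of Nos2 (median 0.135) and 5.94 CPM of Acod1 (median 1.71), each far below the LPS 8 h libraries. Control replicate 1 was the highest for Gbp5 and B2m, with 2.33 CPM of Gbp5 (median 0.924) and 1863 CPM of B2m (median 1184). The same library was the lowest for Ccnd2 at 13.4 CPM (median 26.1), and its skeletal muscle markers summed to 73.6 CPM (median 19.9). Control replicate 2 was the highest for Actb at 6256 CPM (median 5089), and control replicate 6 for Cybb at 425 CPM (median 346).

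Among LPS 8 h libraries, replicate 5 was apart by its skeletal muscle markers, which summed to 4956 CPM (median 23.01), and by its stromal markers at 286 CPM (median 104). It was also the highest for Dbp at 4.38 CPM (median 0.790). LPS replicate 2 was the highest for Dusp6 at 13.7 CPM (median 8.62).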

How the results depend on the processing

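Over the alternatives, 4432 genes called higher and 4795 called lower became 2193 and 8841 on library totals alone and 1937 and 1770 against a minimum log2 fold change of 1. DESeq2 size factors, the DESeq2 Wald test, limma-voom, other count filters, fewer libraries and the library set as a term kept both counts within 1.5 times. Leaving out 1 library at a time gave 4386 to 4454 genes higher, 4704 to 4773 lower and 7946 to 8201 called between 8 h and 2 h of LPS.

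Of the genes named above, 177 were checked under the alternatives. Among their 4597 log2 fold changes 16 changed sign, and all of these belong to genes that were not called. On library totals they were -0.61 for Canx, -0.67 for Ccl6, -0.73 for Gapdh, -0.51 for Gata2, -0.44 for Rfc3 and -0.41 for Tpx2. In set A alone Gapdh was at -0.033, Gata2 at -0.22 and Tlr4 at 0.17, and in set B alone Rfc3 was at -0.24 and Tpx2 at -0.55. Without 1 library Ccl6 ranged from -0.038 to 0.21 and Gapdh from -0.0072 to 0.095. Calls were lost in 28 cases, 21 of them against the minimum fold change. The cause was not tested.

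No paired analysis was possible because the labels give no replicate numbers that pair libraries. The sets A and B were found from the counts and not from the labels, and with the set as a term 4699 genes were called higher and 5122 lower. Of the 177 checked genes, 176 had a value in both sets, and 171 of these had the same sign in both. Some genes given above with values in both sets, such as Il6, Il12b and Mcm2, were not among those checked. Depth limits the genes near 0 in one group, whose ratios are given with counting intervals. Counting intervals and floors cover counting error only.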
